A study of Rattus norvegicus with 30 samples.

Results

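The CC chemokines followed here are the 10 genes Ccl2, Ccl3, Ccl4, Ccl5, Ccl7, Ccl12, Ccl17, Ccl20, Ccl21 and Ccl22. They were taken by gene symbol from a table of 22914 rat genes with read counts and a matching table of 22907 genes with FPKM values (fragment counts scaled for transcript length and library depth). Each symbol matched 1 Ensembl gene, and all 10 passed the filter on low counts that 15934 genes passed. RNA was sequenced from the lungs of 30 male Sprague Dawley rats, 8 weeks old and weighing 180 to 220 g, in 10 groups of 3 rats. The Sham groups had surgery in which the pancreas was only turned. The Con groups received saline in the biliopancreatic duct. The study states that saline in the duct led to mild pancreatitis, and it therefore used Sham as the reference. In the SAP groups 5.0% sodium taurocholate, 0.1 mL per 100 g of body weight, was given by the same route to cause severe acute pancreatitis with lung injury. The DEX groups had SAP and dexamethasone, a synthetic glucocorticoid, at 10 mg/kg by vein. The Emo groups had SAP and emodin, an anthraquinone from rhubarb root, by stomach tube. Its dose was 40 mg/kg in the study's protocol and 10 mg/kg in the sample descriptions. The drugs were given 2 and 12 h after surgery, so that rats killed at 6 h had received 1 dose and those killed at 24 h had received both. All other groups received the vehicles, saline by vein and carboxymethylcellulose by stomach tube. There was no group given a drug without pancreatitis, and lungs were flushed with saline, and an unfixed part of each was used without sorting cells.

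CC chemokines are small secreted proteins, named for a pair of adjacent cysteines, that draw leukocytes along a gradient through receptors coupled to G proteins. In lung they are made by macrophages, epithelium, endothelium, dendritic cells and lymphocytes, and many of their genes are switched on by NF-κB and held down by glucocorticoids. Ccl2, Ccl7 and Ccl12 act on Ccr2 and draw monocytes. Ccl3, Ccl4 and Ccl5 draw macrophages and lymphocytes, and Ccl3 and Ccl5 act on Ccr1. Ccl17 and Ccl22 act on Ccr4 of T cells, Ccl20 on Ccr6, and Ccl21 on Ccr7, the receptor that guides naive T cells and dendritic cells through lymphatic vessels and lymphoid tissue.

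The 250 bases before the transcription start were read from RefSeq (rat build GRCr8) for the 3 members below. Ccl7 and Ccl12 are shown because they moved together across libraries, and Ccl21 because its calls held best. The RefSeq table matched 6 of the 10 members by symbol, namely Ccl7, Ccl12, Ccl17, Ccl20, Ccl21 and Ccl22. Each sequence is written 5′ to 3′ on the gene's strand, and capitals mark NF-κB-like letters (GGANNTTCC on either strand) and TATA boxes (TATAAA on the gene's strand). The positions are chr10:67513845-67514094 on the plus strand for Ccl7, chr10:67567626-67567875 on the plus strand for Ccl12 and chr5:61777516-61777765 on the minus strand for Ccl21.
Ccl7: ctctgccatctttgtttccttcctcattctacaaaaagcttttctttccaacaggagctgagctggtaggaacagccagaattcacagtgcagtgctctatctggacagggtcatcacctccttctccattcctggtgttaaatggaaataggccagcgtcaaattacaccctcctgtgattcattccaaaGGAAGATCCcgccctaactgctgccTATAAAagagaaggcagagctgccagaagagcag
Ccl12: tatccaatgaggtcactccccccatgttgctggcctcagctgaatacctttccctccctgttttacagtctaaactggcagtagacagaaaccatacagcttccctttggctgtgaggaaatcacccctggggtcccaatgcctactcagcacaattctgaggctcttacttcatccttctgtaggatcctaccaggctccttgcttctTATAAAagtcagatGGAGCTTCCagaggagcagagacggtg
Ccl21: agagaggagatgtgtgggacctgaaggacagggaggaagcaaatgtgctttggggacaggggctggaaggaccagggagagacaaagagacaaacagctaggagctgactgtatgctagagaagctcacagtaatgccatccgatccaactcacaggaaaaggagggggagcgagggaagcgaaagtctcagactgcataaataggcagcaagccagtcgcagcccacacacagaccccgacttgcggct
The NF-κB-like letters began 59 bases before the start in Ccl7 and 27 in Ccl12, occurred in none of the other 4 windows, and were in 3.36% of all 33469 rat promoter windows of this length. The TATA box began 34 bases before the start in Ccl7 and 41 in Ccl12, and 8.06% of all windows held one. An AP-1-like motif (TGANTCA, either strand), held by 6.34% of windows, began 73 bases before the start of Ccl7 and occurred in none of the other 5 windows. No glucocorticoid-response-like letters (ACANNNTGT, either strand), held by 5.81% of windows, were in any of the 6. The motifs do not overlap one another in these windows. Such matches are descriptions of sequence, and no binding was measured.

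Libraries held between 16813949 and 34692306 reads on genes, and the 3 libraries of each group differed by more than counting error. In the study's mapping summary, each Sham and Con library had a higher share of uniquely mapped reads than any SAP, DEX or Emo library. In comparisons with Sham or Con, a technical difference between these sets of libraries cannot be told apart from an effect of treatment. The lung label was borne out by the 6 epithelial markers (Sftpc, Scgb1a1 and others), whose FPKM summed to between 50180 and 94540. The dexamethasone label was checked with 8 glucocorticoid target genes such as Fkbp5 and Per1. Their summed FPKM was 1124 to 1567 in the 6 DEX libraries and 352.2 to 1200 in the other 24. Heart muscle genes ranged from 7.46 to 326.2 FPKM in sum between libraries of all groups. The study's labels do not say whether rats of the same replicate number shared a day or cage.

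A pair of members supplied most of the 10 members' summed FPKM, a level per length. Ccl5 and Ccl21 made up 70.7% to 97.1% of the 10 members' summed FPKM in every library. Over all 30 libraries Ccl5 averaged 170.7 FPKM and Ccl21 averaged 151.9, while Ccl3 averaged 8.13, Ccl4 7.97 and the other 6 between 0.46 and 2.82. The members' summed FPKM was 341 ± 83.6 (SD, n = 3) in Sham-24h, 171 ± 5.34 in SAP-24h, 80.6 ± 11.5 in DEX-24h and 330 ± 129 in Emo-24h. The Ccr2 ligands together were 0.0522% of the sum in the lowest library, of DEX-6h, and 9.45% in the highest, of SAP-24h. In unsorted lung tissue, fewer cells of a type and less RNA per cell cannot be told apart.

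**Figure D1:**
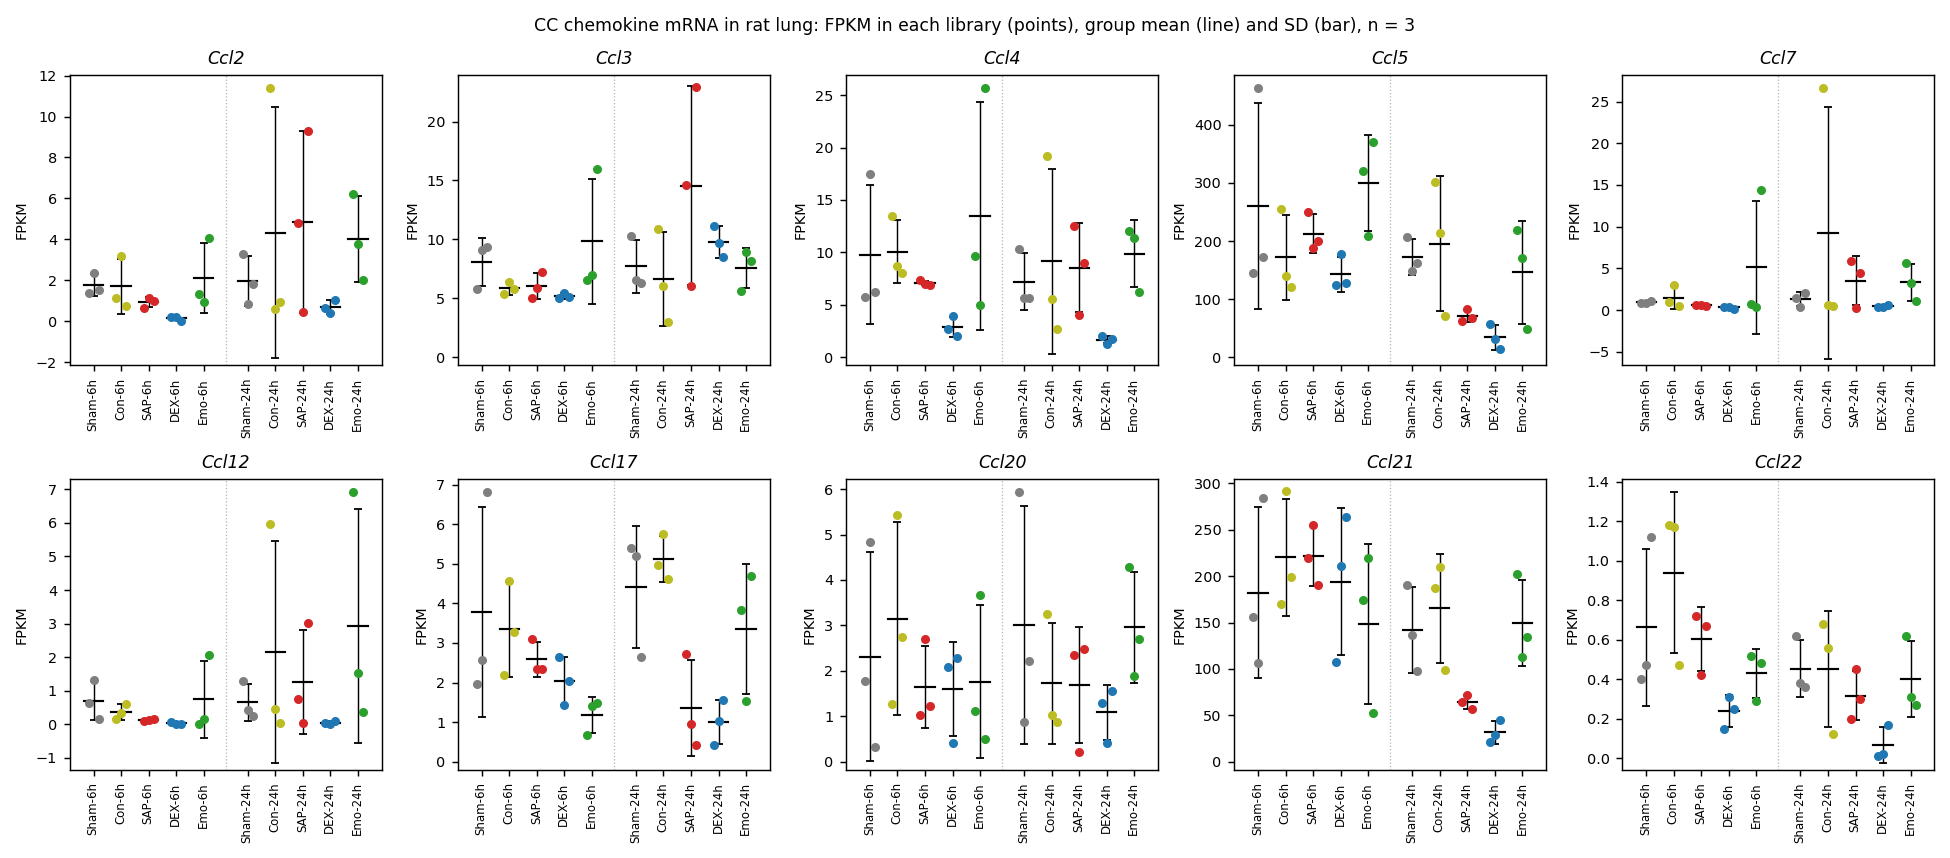
FPKM of each CC chemokine in the 30 libraries. Points are rats, lines are group means and bars are SDs (n = 3), with the 6 h groups left of the dotted line; Ccl4, Ccl5, Ccl17, Ccl20, Ccl21 and Ccl22 have their lowest group mean in DEX-24h, and Ccl2, Ccl7 and Ccl12 have 1 high library in Con-24h and in Emo-6h.

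The comparison of SAP with Sham asks what pancreatitis changes in the lung, that of each drug with SAP asks what the drug changes, and that of Emo with DEX asks where the drugs differ. A gene was called when its Benjamini-Hochberg adjusted p was below 0.05 and it changed 2-fold or more in an edgeR quasi-likelihood fit over all 30 libraries. At 6 h no member was called in SAP against Sham, by edgeR (0.22% of all genes tested were called), none had an unadjusted p below 0.05 (13.1% of all genes), and DESeq2 called 0 (1.2%). In DEX-6h against SAP-6h 0 of 10 were called (0.515% of all genes), with 3 at an unadjusted p below 0.05 (12.1% of all genes) and 0 called by DESeq2 (0.948%). In Emo-6h against SAP-6h 0 of 10 were called (0.0251% of all genes), with 1 at an unadjusted p below 0.05 (13.5% of all genes) and 0 called by DESeq2 (0.157%). In Emo-6h against DEX-6h 0 were called by edgeR and 3 by DESeq2 (1.41% of all genes by edgeR and 2.42% by DESeq2), and 5 had an unadjusted p below 0.05 (17.3% of all genes). Against Sham-6h, DEX-6h had 1 member lower, Ccl2 (1.73% of all genes were called lower).

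At 24 h the DEX group had the lowest group mean FPKM of each member except Ccl3. In SAP-24h against Sham-24h edgeR called none of the 10 (5% of all genes), with 4 at an unadjusted p below 0.05 (28.4% of all genes) and 1 called by DESeq2 (6.15%). In DEX-24h against SAP-24h 2 members were lower, Ccl4 and Ccl22 (2.55% of all genes were called lower), and the members' median log2 fold change was -1.74, beside 0.0022 over all genes. In Emo-24h against SAP-24h 0 were called by edgeR and 1 by DESeq2 (3.19% of all genes by edgeR and 4.39% by DESeq2), with 2 at an unadjusted p below 0.05 (26.3% of all genes). In Emo-24h against DEX-24h 5 of 10 were higher, Ccl4, Ccl5, Ccl12, Ccl21 and Ccl22 (3.82% of all genes were called higher). The members' median log2 fold change there was 2.31, and that of all genes was 0.0069. In DEX-24h against Sham-24h 4 were lower, Ccl5, Ccl17, Ccl21 and Ccl22 (3.16% of all genes were called lower), with a median of -2.07. In Emo-24h against Sham-24h edgeR and DESeq2 called no member and none had an unadjusted p below 0.05. Over all genes edgeR and DESeq2 called 0 there, and 478 had an unadjusted p below 0.05.

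In other pairs of groups, no member was called in SAP-6h against Con-6h (0.163% of all genes), Sham-6h against Con-6h (0% of all genes), Emo-6h against Sham-6h (0.477%) or Sham-24h against Con-24h (1%), by edgeR. At an unadjusted p below 0.05 these comparisons had 0, 0, 1 and 1 members (10.4%, 8.61%, 22.6% and 27% of all genes), and DESeq2 called 0 in each (0.596%, 0.0439%, 1.12% and 1.14%). SAP-24h against Con-24h had 1 member higher (Ccl3) and 2 lower (Ccl17 and Ccl21), where 6.91% of all genes were called. With time, SAP had 1 member lower at 24 h, Ccl21 (1.74% of all genes were called lower), and DEX had 2 lower, Ccl5 and Ccl21 (3.91%). Sham (0.257% of all genes), Con (0.00628%) and Emo (9.41%) had none by edgeR. DESeq2 called 0, 0 and 1 in these (1.05%, 0.678% and 9.8% of all genes), and 0, 1 and 2 had an unadjusted p below 0.05 (20.4%, 10.5% and 44.1%).

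**Figure D2:**
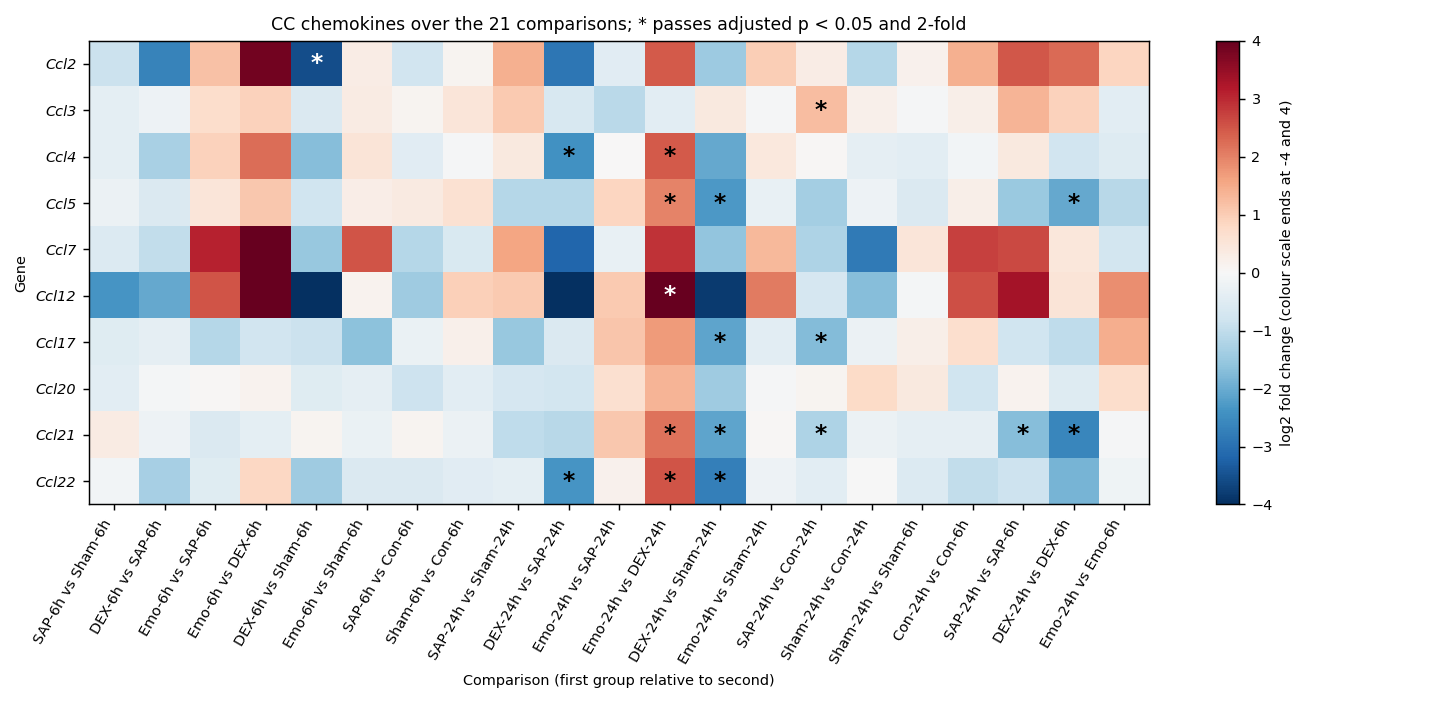
Log2 fold change (colour, red higher and blue lower in the first group named) of each CC chemokine, in rows, over the 21 comparisons, in columns. Asterisks mark an adjusted p below 0.05 with at least a 2-fold change; most lie in the columns with DEX-24h, 5 of them in Emo-24h against DEX-24h and 4 in DEX-24h against Sham-24h.

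Ccl21, the Ccr7 ligand, was lowest in the DEX-24h lungs. Its FPKM was 20.66, 28.87 and 45.25 in the DEX-24h rats, 63.75, 71.38 and 56.67 in SAP-24h, 190.38, 136.87 and 97.94 in Sham-24h and 201.81, 113.02 and 134.01 in Emo-24h. Each DEX-24h rat lay below each SAP-24h rat, and each SAP-24h rat below each Sham-24h and Emo-24h rat. Ccl21 was higher in Emo-24h than in DEX-24h by 2.18 on the log2 scale (SE 0.44, edgeR adjusted p = 0.00348), and lower in DEX-24h than in Sham-24h (log2 fold change -2.12, SE 0.44, edgeR adjusted p = 0.00443). Both calls were kept in each of the 6 fits that left out 1 library and under each of the 7 other settings. Against SAP-24h, Ccl21 did not pass in DEX-24h (log2 fold change -1.11, 95% interval -2.01 to -0.21, edgeR adjusted p = 0.118) or in Emo-24h (1.06, 95% interval 0.17 to 1.96, edgeR adjusted p = 0.118). SAP-24h against Sham-24h did not pass either (log2 fold change -1.01, 95% interval -1.91 to -0.12, edgeR adjusted p = 0.121). SAP-24h was lower than Con-24h, whose rats had 186.99, 210.21 and 98.78 FPKM (log2 fold change -1.25, SE 0.43, edgeR adjusted p = 0.0405). That call was kept only in the fit without Con-24h replicate 3 among the 6 fits that left out a library, with adjusted p from 0.0660 to 0.163 in the other 5.

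The 6 h rats of the SAP and DEX groups had more Ccl21. SAP-6h had 219.96, 254.98 and 189.95 FPKM and DEX-6h had 107.59, 211.37 and 263.55, in both cases above all 24 h rats of the same treatment. Ccl21 fell from 6 to 24 h under DEX (log2 fold change -2.60, SE 0.45, edgeR adjusted p = 0.000429) and in SAP (-1.69, SE 0.44, edgeR adjusted p = 0.0257). The DEX call was kept in all 6 fits with a library left out. The SAP call was lost without SAP-24h replicate 1 or 3 or SAP-6h replicate 1 or 2, where the adjusted p was 0.0567 to 0.0867. In Emo the rats had 173.78, 219.90 and 52.74 FPKM at 6 h, and the difference with time did not pass (log2 fold change -0.03, 95% interval -0.92 to 0.85). Of the 10 groups ordered by mean Ccl21 FPKM, from SAP-6h (222) to DEX-24h (31.6), the gaps larger than the SD of both neighbours were those between Sham-24h and SAP-24h and between SAP-24h and DEX-24h.

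Ccl5, a ligand of Ccr1 made chiefly by T cells and natural killer cells, had a similar order at 24 h. Its FPKM was 57.36, 31.30 and 14.14 in DEX-24h, 61.59, 82.56 and 68.24 in SAP-24h, 207.37, 147.78 and 162.15 in Sham-24h and 218.57, 171.59 and 48.05 in Emo-24h. The DEX-24h rats lay below the SAP-24h rats and those below the Sham-24h rats, but Emo-24h replicate 3 fell below DEX-24h replicate 1. Ccl5 was lower in DEX-24h than in Sham-24h (log2 fold change -2.28, SE 0.55, edgeR adjusted p = 0.0115) and higher in Emo-24h than in DEX-24h (2.00, SE 0.54, edgeR adjusted p = 0.0221). The first call was lost without DEX-24h replicate 2 or 3 or Sham-24h replicate 1 (adjusted p 0.0520 to 0.0856). The second was lost without DEX-24h replicate 2 or 3 or Emo-24h replicate 1 or 2 (0.0812 to 0.126). From 6 to 24 h under DEX, where the 6 h rats had 123.70, 177.81 and 127.01 FPKM, Ccl5 fell by 2.04 on the log2 scale (SE 0.54, edgeR adjusted p = 0.00840), and this call was kept whichever library was left out. SAP-24h was lower than SAP-6h by a log2 fold change of -1.50, and lower than Sham-24h by one of -1.16, without passing (edgeR adjusted p = 0.0877 and 0.150).

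Ccl4, a product of activated macrophages and lymphocytes, was low in both DEX groups. The DEX-24h rats had 2.02, 1.29 and 1.76 FPKM, against 12.52, 4.05 and 9.0 in SAP-24h, 10.35, 5.63 and 5.67 in Sham-24h and 12.04, 11.34 and 6.21 in Emo-24h. No DEX-24h rat overlapped a rat of those groups. Ccl4 was lower in DEX-24h than in SAP-24h (log2 fold change -2.44, SE 0.64, edgeR adjusted p = 0.0222) and higher in Emo-24h than in DEX-24h (2.46, SE 0.64, edgeR adjusted p = 0.0178). The first call was lost without any one of the DEX-24h libraries or SAP-24h replicate 1 (adjusted p 0.0580 to 0.0938), and the second without DEX-24h replicate 2 or 3 or Emo-24h replicate 1 or 2 (0.0635 to 0.0786). At 6 h the DEX rats had 2.74, 3.89 and 1.98 FPKM and the SAP rats 7.33, 7.03 and 6.90. The groups did not overlap, and the log2 fold change of -1.30 did not pass (95% interval -2.59 to -0.01, edgeR adjusted p = 0.400). Against DEX-6h, the Emo-6h rats (9.63, 4.99 and 25.69 FPKM) were higher by 2.22, just outside the threshold (edgeR adjusted p = 0.0538). Summed FPKM of natural killer cell markers was 31.94, 32.36 and 23.0 in the DEX-6h rats, below the 75.46, 69.57 and 58.04 in SAP-6h, with 0 of 7 called, and its part in the Ccl4 values was not tested.

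Ccl3, a ligand of Ccr1 known from macrophages and neutrophils, did not have its lowest 24 h level in DEX. The SAP-24h rats had 14.61, 6.05 and 22.93 FPKM, the DEX-24h rats 11.17, 9.69 and 8.48, the Emo-24h rats 5.66, 8.93 and 8.19 and the Con-24h rats 10.90, 6.04 and 3.02. Within SAP-24h, replicates 1 and 3 were high and replicate 2 was within the range of the controls. Ccl3 was higher in SAP-24h than in Con-24h (log2 fold change 1.24, SE 0.41, edgeR adjusted p = 0.0330). That call was lost without SAP-24h replicate 1 or 3 or Con-24h replicate 2 or 3 (adjusted p 0.0882 to 0.201). Summed FPKM of 8 neutrophil markers, such as S100a8 and Cxcr2, was 12810, 4731 and 16610 in the same SAP-24h rats and 1010, 118.9 and 205.5 in Con-24h, and all 8 were called higher. The part of neutrophils in the Ccl3 difference was not tested. At 6 h the DEX rats had 5.02, 5.45 and 5.10 FPKM, the lowest group mean of all 10, and the SAP rats 5.03, 5.89 and 7.22, and the groups overlapped. DEX-24h differed from SAP-24h by -0.66 (95% interval -1.50 to 0.19, edgeR adjusted p = 0.344).

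The Ccr2 ligands Ccl2, Ccl7 and Ccl12, monocyte chemoattractants whose genes lie on chromosome 10, varied widely between rats. Ccl2 was 4.8, 0.45 and 9.31 FPKM in the SAP-24h rats, 0.65, 0.38 and 1.05 in DEX-24h, 6.23, 3.76 and 2.03 in Emo-24h and 3.28, 0.86 and 1.82 in Sham-24h. SAP-24h replicate 2 lay with the DEX-24h rats. Ccl2 in DEX-24h against SAP-24h, at a log2 fold change of -2.89, did not pass (95% interval -4.90 to -0.88, edgeR adjusted p = 0.0675). Ccl7 in the same SAP-24h rats was 5.89, 0.29 and 4.39 FPKM, with 0.31, 0.38 and 0.58 in DEX-24h and 5.58, 3.22 and 1.12 in Emo-24h. Its log2 fold change in DEX-24h against SAP-24h was -3.17 (95% interval -6.0 to -0.35, edgeR adjusted p = 0.158). Again SAP-24h replicate 2 was the low rat, here the lowest of the 9 rats. Summed FPKM of the 8 neutrophil markers was 12810, 4731 and 16610 in these SAP-24h rats, where replicate 2 was again lowest, and 2340, 1098 and 3043 in DEX-24h. The part of neutrophils in the Ccl2 and Ccl7 values was not tested.

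At 6 h, Ccl2 was 0.19, 0.21 and 0.03 FPKM in the DEX rats, the lowest of all groups, against 1.39, 2.36 and 1.54 in Sham-6h and 0.67, 1.14 and 0.97 in SAP-6h. DEX-6h overlapped neither group. Ccl2 was lower in DEX-6h than in Sham-6h (log2 fold change -3.54, SE 1.13, edgeR adjusted p = 0.0476), a call that was lost in each of the 6 fits with a library left out (adjusted p 0.0703 to 0.180). Against SAP-6h the log2 fold change of -2.66 did not pass (95% interval -5.05 to -0.27, edgeR adjusted p = 0.323). Emo-6h rats had 1.34, 0.92 and 4.08 FPKM, higher than DEX-6h by 3.85 on the log2 scale without passing (edgeR adjusted p = 0.0636).

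Ccl12 was the least abundant Ccr2 ligand, with no reads in 4 of the 30 libraries. The DEX-24h rats had 1, 0 and 2 reads, the SAP-24h rats 18, 1 and 71, the Emo-24h rats 143, 36 and 8, and the DEX-6h rats 2, 0 and 0. The Emo-24h rats together held 187 reads and the DEX-24h rats 3, a ratio of 67.4 after scaling for depth (exact 95% interval 22.7 to 330.0, counting error only). The edgeR call for this pair (adjusted p = 0.0365) was kept only without Emo-24h replicate 3 among the 6 fits with a library left out, and the other 5 gave adjusted p from 0.0620 to 0.208. SAP-24h exceeded DEX-24h by a ratio of 33.0 (exact 95% interval 10.9 to 163.0, counting error only), and edgeR did not call that pair (adjusted p = 0.0941). The reads of a single rat, SAP-24h replicate 3, were most of the SAP-24h total.

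The same libraries were high for all 3 Ccr2 ligands. Promoter windows of Ccl7 and Ccl12 are printed above, and Ccl2 had none matched. A link between the motifs in those windows and these levels was not tested. Con-24h replicate 1 had 11.39 FPKM of Ccl2, 26.62 of Ccl7 and 5.96 of Ccl12, where the other Con-24h rats had at most 0.96, 0.63 and 0.46. Emo-6h replicate 3 had 14.36 FPKM of Ccl7, against 0.73 and 0.33 in its group. Both libraries were also the highest of their groups in natural killer cell, T cell and monocyte and macrophage markers, and not in B cell markers. Summed FPKM of natural killer cell markers was 186.5 in Con-24h replicate 1, against 79.58 and 27.04, and 360.5 in Emo-6h replicate 3, against 90.72 and 67.02. For T cell markers it was 135.9 and 124.3 in those libraries. For monocyte and macrophage markers it was 233.7 in the first, against 212.0 and 210.4, and 376.6 in the second, against 283.8 and 278.5. The part of these cells in the Ccr2 ligands' levels was not tested. Across the 30 libraries log2(FPKM + 1) of Ccl2 had a Pearson r of 0.89 with Ccl7 and 0.865 with Ccl12, and 0.898 and 0.837 when each rat was taken relative to its group mean. Both genes of a pair are read from the same libraries, and these values are descriptions. Ccl4 had a Pearson r of 0.729 with Ccl2 and 0.714 with Ccl7, whereas Ccl5 and Ccl21, at 0.595 over all libraries, had -0.138 within groups.

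Ccl17 and Ccl22 are Ccr4 ligands typical of dendritic cells and macrophages. Ccl17 was 0.42, 1.03 and 1.55 FPKM in DEX-24h, 2.72, 0.95 and 0.41 in SAP-24h, 5.41, 5.19 and 2.64 in Sham-24h, 4.98, 5.77 and 4.63 in Con-24h and 3.83, 1.52 and 4.70 in Emo-24h. The DEX-24h rats overlapped the SAP-24h rats and lay below all Sham-24h rats. Ccl17 was lower in DEX-24h than in Sham-24h (log2 fold change -2.11, SE 0.60, edgeR adjusted p = 0.0328) and in SAP-24h than in Con-24h (-1.75, SE 0.58, edgeR adjusted p = 0.0335). The first call was kept only without Sham-24h replicate 3 among the fits with a library left out (adjusted p in the other 5, 0.0538 to 0.150). The second was lost without Con-24h replicate 1 or 2 or SAP-24h replicate 2 or 3 (0.0675 to 0.138).

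Ccl22 stayed near or below 1 FPKM in all groups, so its values rest on few reads. It was 0.01, 0.02 and 0.17 FPKM in DEX-24h, 0.20, 0.45 and 0.30 in SAP-24h, 0.62, 0.38 and 0.36 in Sham-24h and 0.62, 0.31 and 0.27 in Emo-24h. All DEX-24h rats were below all rats of those groups. Ccl22 was lower in DEX-24h than in SAP-24h (log2 fold change -2.35, SE 0.72, edgeR adjusted p = 0.0450) and than in Sham-24h (-2.74, SE 0.71, edgeR adjusted p = 0.0191), and higher in Emo-24h than in DEX-24h (2.53, SE 0.71, edgeR adjusted p = 0.0279). The call against SAP-24h was kept only without DEX-24h replicate 3 (adjusted p in the other 5 fits, 0.0545 to 0.177). Without DEX-24h replicate 1 or 2 the adjusted p was 0.0958 and 0.0915 against Sham-24h and 0.122 and 0.122 for Emo-24h. It was 0.0895 without Sham-24h replicate 1, and 0.136 and 0.0561 without Emo-24h replicate 1 or 2.

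Ccl20, the Ccr6 ligand of epithelial cells, showed no call in any of the 21 edgeR comparisons. Its FPKM at 24 h was 2.35, 0.21 and 2.48 in SAP, 1.29, 0.41 and 1.56 in DEX, 4.28, 1.88 and 2.70 in Emo and 5.93, 0.87 and 2.22 in Sham. The Emo-24h rats lay above the DEX-24h rats, and both overlapped the other groups listed. The interval of the Emo-24h against DEX-24h log2 fold change was -0.54 to 3.28. All 9 gaps between neighbouring groups in the order of means were within the larger SD. The genes most like Ccl20 across libraries were muscle genes, Car3, Smpx and Hrc (Pearson r 0.78, 0.767 and 0.765), and the summed FPKM of 8 heart muscle markers was 183.0, 11.8 and 147.1 in the Sham-24h rats listed above. None of the 8 was called in Emo-24h against DEX-24h. The part of muscle tissue in the Ccl20 level was not tested.

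**Figure D3:**
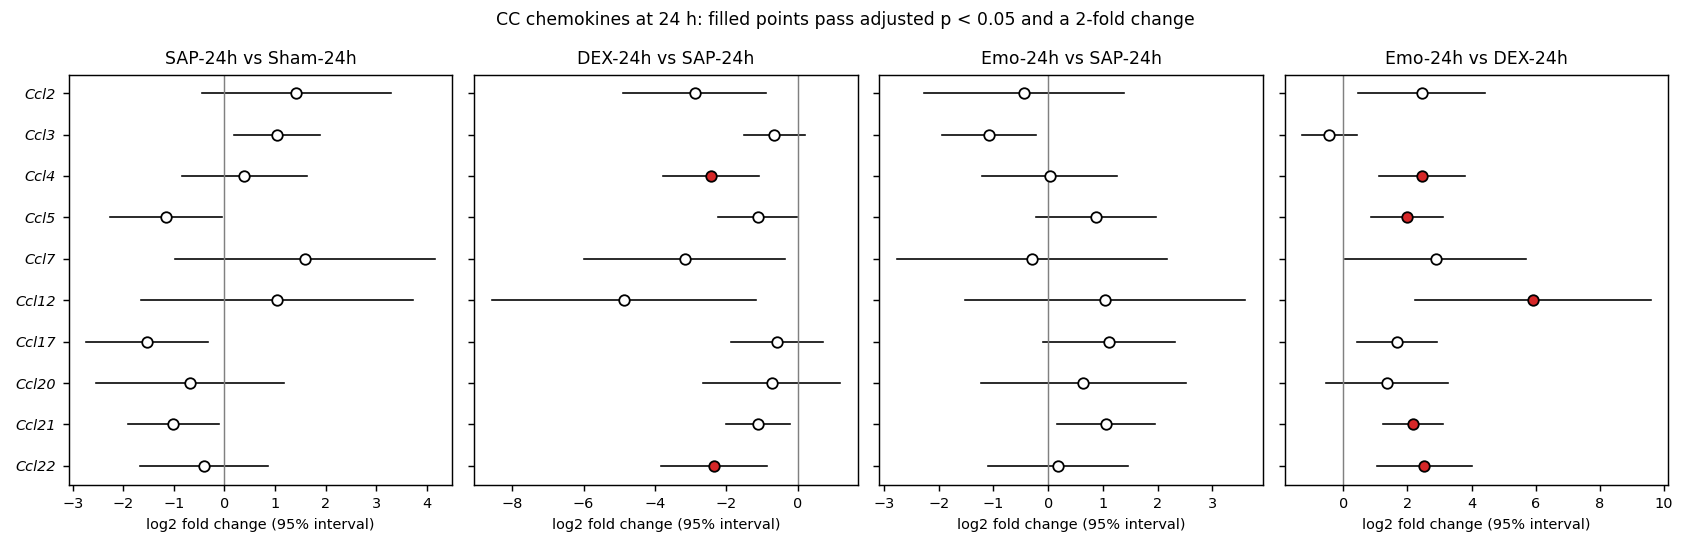
Log2 fold change with 95% interval of each CC chemokine in 4 comparisons at 24 h. Filled points pass an adjusted p below 0.05 and a 2-fold change; none do in SAP-24h against Sham-24h or Emo-24h against SAP-24h, 2 do in DEX-24h against SAP-24h and 5 in Emo-24h against DEX-24h.

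Whether an effect differed between 6 and 24 h was tested as an interaction. No member was called for SAP against Sham (0.0314% of all genes), for DEX against SAP (0.138%) or for Emo against SAP (1.68%) by edgeR. At an unadjusted p below 0.05 there were 2, 0 and 3 members (12.6%, 13.6% and 23.4% of all genes), and DESeq2 called 0, 0 and 1 (0.916%, 1.13% and 3.8%). The lowest adjusted p was that of Ccl3 for Emo against SAP (0.0731), where Emo was 0.70 above SAP at 6 h and -1.08 at 24 h on the log2 scale.

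Some CC chemokine receptors also differed at 24 h, and Ccr7, the receptor of Ccl21, was lowest in the DEX group too. Ccr7 was 0.23, 0.29 and 0.55 FPKM in DEX-24h, 1.63, 1.64 and 2.70 in SAP-24h, 5.55, 3.35 and 3.55 in Sham-24h and 7.23, 5.92 and 2.36 in Emo-24h. The DEX-24h rats were below all the others. Ccr7 was lower in DEX-24h than in SAP-24h (log2 fold change -2.57, SE 0.48, edgeR adjusted p = 0.00240) and Sham-24h (-3.50, SE 0.49, edgeR adjusted p = 0.000220), and higher in Emo-24h than in DEX-24h (3.78, SE 0.49, edgeR adjusted p = 8.8e-05), and these 3 calls were kept whichever library was left out. Of the 9 CC receptors reported here, Ccr9 and Ccr7 were lower in DEX-24h against SAP-24h (2.55% of all genes), the Ccr9 call being kept only without SAP-24h replicate 2 or 3. Against Sham-24h 6 were lower in DEX-24h, namely Ccr4, Ccr6, Ccr7, Ccr8, Ccr9 and Ccr10, all found on lymphocytes (3.16% of all genes). Of these, Ccr7 and Ccr9 were kept in all 6 fits with a library left out, Ccr10 in 3 (lost without DEX-24h replicate 2 or 3 or Sham-24h replicate 1), Ccr4 in 2 (without DEX-24h replicate 1 or Sham-24h replicate 2), and Ccr6 and Ccr8 only in the fit without Sham-24h replicate 2. In Emo-24h against DEX-24h 3 were higher, Ccr4, Ccr7 and Ccr9 (3.82% of all genes), and the Ccr4 call was kept only without DEX-24h replicate 1. T cell marker sums were 6.93 to 15.36 in DEX-24h and 52.40 to 75.23 in Sham-24h, and B cell marker sums 14.57 to 19.79 and 52.11 to 68.24. The part of lymphocytes in these receptor values was not tested.

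Ccr4, the receptor of Ccl17 and Ccl22, had 3, 0 and 1 reads in the DEX-24h rats and 12, 3 and 10 in Sham-24h. Ccr8 had no reads in any DEX-24h rat and 15 in the Sham-24h rats together, at least 5.2-fold higher when 3 reads over the group stand in for 0. Ccr6, the receptor of Ccl20, was lower in SAP-24h than in Sham-24h (log2 fold change -1.30, SE 0.34, edgeR adjusted p = 0.0159; lost without SAP-24h replicate 2 or 3 or Sham-24h replicate 1), with Ccr3, Ccr9 and Ccr10 the other receptors called there (lower, with 5% of all genes called). The Ccr10 call was kept whichever library was left out, that of Ccr3 only without Sham-24h replicate 3 and that of Ccr9 only without SAP-24h replicate 1. Ccr3, Ccr9 and Ccr10 were the receptors called higher in Emo-24h than in SAP-24h (3.19% of all genes called), and these calls were kept in 1, 2 and 1 of the 6 fits with a library left out (highest adjusted p 0.177, 0.155 and 0.154). Ccr1 and Ccr2, found on monocytes and neutrophils, were higher in SAP-24h than in Con-24h (log2 fold change 2.29 and 2.08, edgeR adjusted p = 0.00146 and 0.0315), while Ccr4, Ccr6, Ccr7 and Ccr10 were lower (6.91% of all genes called; these 4 calls were kept in 1, 5, 3 and 6 of the 6 fits with a library left out). The Ccr2 call was kept only without SAP-24h replicate 3 (adjusted p in the other 5 fits, 0.0557 to 0.113). Neutrophil markers, given above beside Ccl3, were higher in the same comparison. Monocyte and macrophage marker sums were 304.6, 350.2 and 244.7 in SAP-24h and 233.7, 212.0 and 210.4 in Con-24h. The part of these cells in the Ccr1 and Ccr2 values was not tested. Against Sham-24h neither passed (log2 fold change 1.13 for Ccr1 and -0.02 for Ccr2, edgeR adjusted p = 0.0816 and 0.986), and Ccr2 in Sham-24h against Con-24h was 2.10 (edgeR adjusted p = 0.0514). The Sham-24h rats had 9.08, 5.3 and 17.55 FPKM of Ccr1 and 3.56, 1.36 and 8.21 of Ccr2. Their neutrophil marker sums were 1364, 203.8 and 9373, so that replicate 3 was highest in each. The part of this library in the comparisons with Sham-24h was not tested. At 6 h Ccr2 was lower in DEX-6h than in Sham-6h (log2 fold change -2.13, SE 0.66, edgeR adjusted p = 0.0420), the comparison in which its ligand Ccl2 was lower. That call was kept only without Sham-6h replicate 3 (adjusted p in the other 5 fits, 0.0593 to 0.169). Ccr6 was lower in Emo-6h than in DEX-6h (log2 fold change -1.29, edgeR adjusted p = 0.0330; kept in 2 of 6 fits).

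From 6 to 24 h, 6 receptors were lower under DEX, namely Ccr4, Ccr6, Ccr7, Ccr8, Ccr9 and Ccr10 (3.91% of all genes were called lower). The calls on Ccr4, Ccr6, Ccr7 and Ccr9 were kept whichever library was left out, with log2 fold changes of -3.27, -1.84, -4.14 and -2.47. Under SAP 4 were lower, Ccr4, Ccr6, Ccr7 and Ccr10 (1.74% of all genes), and the Ccr4 and Ccr7 calls were lost in each of the 6 fits. Under Emo only Ccr3 was called, higher by 3.07 (edgeR adjusted p = 0.0119; 9.41% of all genes), and this was lost without Emo-24h replicate 2.

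**Figure D4:**
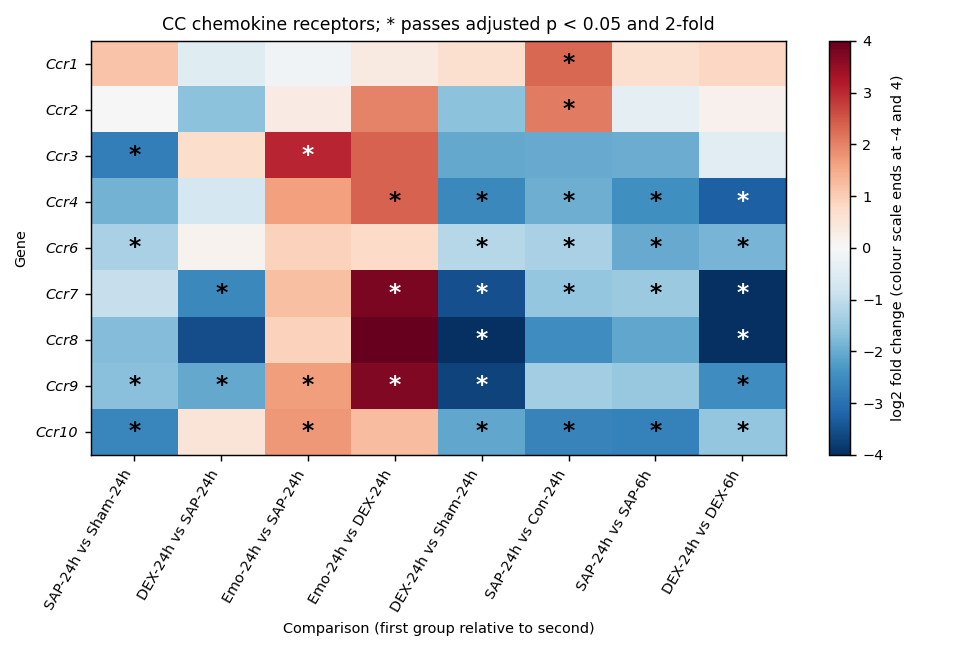
Log2 fold change (colour, red higher and blue lower in the first group named) of 9 CC chemokine receptors, in rows, in 8 comparisons, in columns. Asterisks mark an adjusted p below 0.05 with at least a 2-fold change; Ccr7 is blue with an asterisk in DEX-24h against SAP-24h, Sham-24h and DEX-6h, and red in Emo-24h against DEX-24h.

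Of the other CC chemokines, 7 of 10 were tested. Ccl19, the other Ccr7 ligand, was 1.15, 0.69 and 1.61 FPKM in DEX-24h, 1.64, 1.63 and 4.29 in SAP-24h, 23.26, 3.92 and 7.14 in Sham-24h and 21.35, 10.07 and 5.10 in Emo-24h. It was lower in DEX-24h than in Sham-24h (log2 fold change -3.25, SE 0.98, edgeR adjusted p = 0.0441) and higher in Emo-24h than in DEX-24h (3.32, SE 0.98, edgeR adjusted p = 0.0351), the groups not overlapping (3.16% of all genes called lower and 3.82% higher). The first call was kept only without Sham-24h replicate 2 and the second only without Emo-24h replicate 3 (adjusted p otherwise 0.0574 to 0.277 and 0.0725 to 0.154). Ccl19 was also lower in SAP-24h than in Con-24h (log2 fold change -3.01, SE 0.94, edgeR adjusted p = 0.0250; lost without Con-24h replicate 1 or SAP-24h replicate 1 or 2), and DEX-24h against SAP-24h did not pass (-1.21, edgeR adjusted p = 0.484). Ccl6, a macrophage chemokine of rodents with 144.88, 94.17 and 33.48 FPKM in DEX-24h and 205.84, 267.73 and 280.67 in Emo-24h, was lower in DEX-24h than in Sham-24h (log2 fold change -1.58, edgeR adjusted p = 0.00380) and than in DEX-6h (-1.27, edgeR adjusted p = 0.00597), and higher in Emo-24h than in DEX-24h (1.40, edgeR adjusted p = 0.00739). Without DEX-24h replicate 3 the differences from DEX-6h and Emo-24h were under 2-fold (log2 fold change -0.87 and 0.98). Its mean FPKM of 90.84 in DEX-24h and 135.2 in SAP-24h stood beside 34.27 and 70.80 for Ccl5. From 6 to 24 h under Emo, Ccl27 and Ccl9 were higher (log2 fold change 1.08 and 1.72, edgeR adjusted p = 0.00215 and 0.0433; 9.41% of all genes called), calls kept in 4 and 2 of the 6 fits with a library left out. None of the 7 was called in SAP-24h against Sham-24h, DEX-24h against SAP-24h or Emo-24h against SAP-24h, where 5%, 2.55% (lower) and 3.19% of all genes were. Of 11 rows for inducing cytokines, 6 were tested. Il1a, an alarm cytokine of the interleukin-1 family, was 39.85, 33.69 and 29.50 FPKM in DEX-6h, 27.11, 17.10 and 20.70 in SAP-6h, 8.51, 6.95 and 2.10 in Sham-6h and 5.50, 2.59 and 2.55 in DEX-24h. It was higher in DEX-6h than in Sham-6h (log2 fold change 2.61, SE 0.50, edgeR adjusted p = 0.00235) and fell by 3.26 from DEX-6h to DEX-24h (SE 0.51, edgeR adjusted p = 0.000178), and both calls were kept whichever library was left out. Against SAP-6h the DEX-6h difference of 0.66 did not pass (edgeR adjusted p = 0.670), and in SAP-6h against Con-6h Il1a was higher by 2.51 (edgeR adjusted p = 0.0315; kept in 1 of 6 fits with a library left out). Against Sham-6h the SAP-6h difference of 1.95 did not pass (edgeR adjusted p = 0.0897). In DEX-6h against Sham-6h Csf2 was higher by 1.47 (edgeR adjusted p = 0.0188) and Lta was lower (log2 fold change -2.16, edgeR adjusted p = 0.0257), calls kept in 3 and 1 of the 6 fits. The call in Emo-24h against DEX-24h was Lta, higher by 1.92 (SE 0.60, edgeR adjusted p = 0.0455; kept only without Emo-24h replicate 3), and Il1b, a neutrophil and macrophage cytokine, was higher in SAP-24h than in Con-24h (3.00, SE 0.73, edgeR adjusted p = 0.00572; lost without SAP-24h replicate 3, at 0.0594). Neutrophil markers were higher there too, and their part in the Il1b value was not tested. Of the 3 atypical receptors matched, Ccrl2 and Ackr4 were lower in SAP-24h than in Con-24h (6.91% of all genes called; log2 fold change -1.17 and -1.70, edgeR adjusted p = 0.000414 and 0.00829). The calls were lost without Con-24h replicate 1 for Ccrl2 (log2 fold change -0.96) and without SAP-24h replicate 1 for Ackr4 (adjusted p = 0.0516).

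Markers of T cells and B cells were lower in DEX-24h than in Emo-24h, as 5 members were. Summed FPKM of 8 T cell markers (Cd3e, Lck and others) was 6.93 to 15.36 in the DEX-24h rats, 14.11 to 19.58 in SAP-24h, 52.40 to 75.23 in Sham-24h and 18.56 to 74.65 in Emo-24h. All 8 were lower in DEX-24h than in Sham-24h and than in DEX-6h, all 8 were higher in Emo-24h than in DEX-24h, and 6 were lower in SAP-24h than in Sham-24h. Over all genes 3.16%, 3.91%, 3.82% and 5% were called in these comparisons, the first pair counting lower and the third higher genes, and 2.55% were called lower in DEX-24h against SAP-24h. The sum of 8 B cell markers lay between 14.57 and 19.79 in the DEX-24h rats and between 60.46 and 86.77 in the Emo-24h rats, with 7 called higher. The SAP-24h rats had sums of 33.31 to 55.53 and the Sham-24h rats 52.11 to 68.24, all above DEX-24h, and 4 and 6 markers were called lower in DEX-24h. In Emo-24h against DEX-24h the sum of 8 dendritic cell markers was 37.70 to 47.81 and 26.83 to 33.96, with 5 called higher. The dendritic cell sum was 43.35 to 49.93 in Sham-24h and 42.87 to 63.40 in SAP-24h. These ranges overlapped each other, and all of these rats lay above all DEX-24h rats. For natural killer cells 3 of 7 were higher in Emo-24h than in DEX-24h, the sums being 24.91 to 114.4 and 6.33 to 28.24. The natural killer cell sums were 53.11 to 80.29 in Sham-24h, all above DEX-24h, and 22.1 to 35.05 in SAP-24h, which overlapped DEX-24h. Lymphatic endothelium, a known source of Ccl21, had 0 of 6 markers called in Emo-24h against DEX-24h, DEX-24h against Sham-24h or DEX-24h against SAP-24h, with DEX-24h sums of 213.6 to 305.2, SAP-24h sums of 165.6 to 267.7, Sham-24h sums of 305.8 to 583.2 and Emo-24h sums of 246.4 to 387.0. In DEX-24h against DEX-6h, where Ccl21 was lower, 1 of the 6 was called lower, and the DEX-6h sums of 330.0, 626.9 and 599.0 were all above those of DEX-24h. In SAP-6h the sums were 278.2 to 377.6, also all above those of SAP-24h, with 0 of 6 called. In SAP-6h and SAP-24h, T cell sums were 53.44 to 65.45 and 14.11 to 19.58, and B cell sums 58.49 to 109.1 and 33.31 to 55.53. Natural killer cell sums were 58.04 to 75.46 and 22.1 to 35.05, and those of red blood cell markers 6260 to 9503 and 1181 to 2169. Neutrophil sums went the other way, at 2111 to 4625 and 4731 to 16610. Monocyte and macrophage markers summed to 177.4 to 260.0 in DEX-24h and 244.7 to 350.2 in SAP-24h, with 1 of 8 called lower in DEX-24h. Of these lists, the markers at or below 0.02 FPKM in all 3 rats of a 24 h group were Xcr1 in DEX-24h, Marco in Sham-24h and Con-24h, and 1 of 2 Gzmb rows in Sham-24h, SAP-24h and Emo-24h. The part of these cells in the members' levels was not tested.

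**Figure D5:**
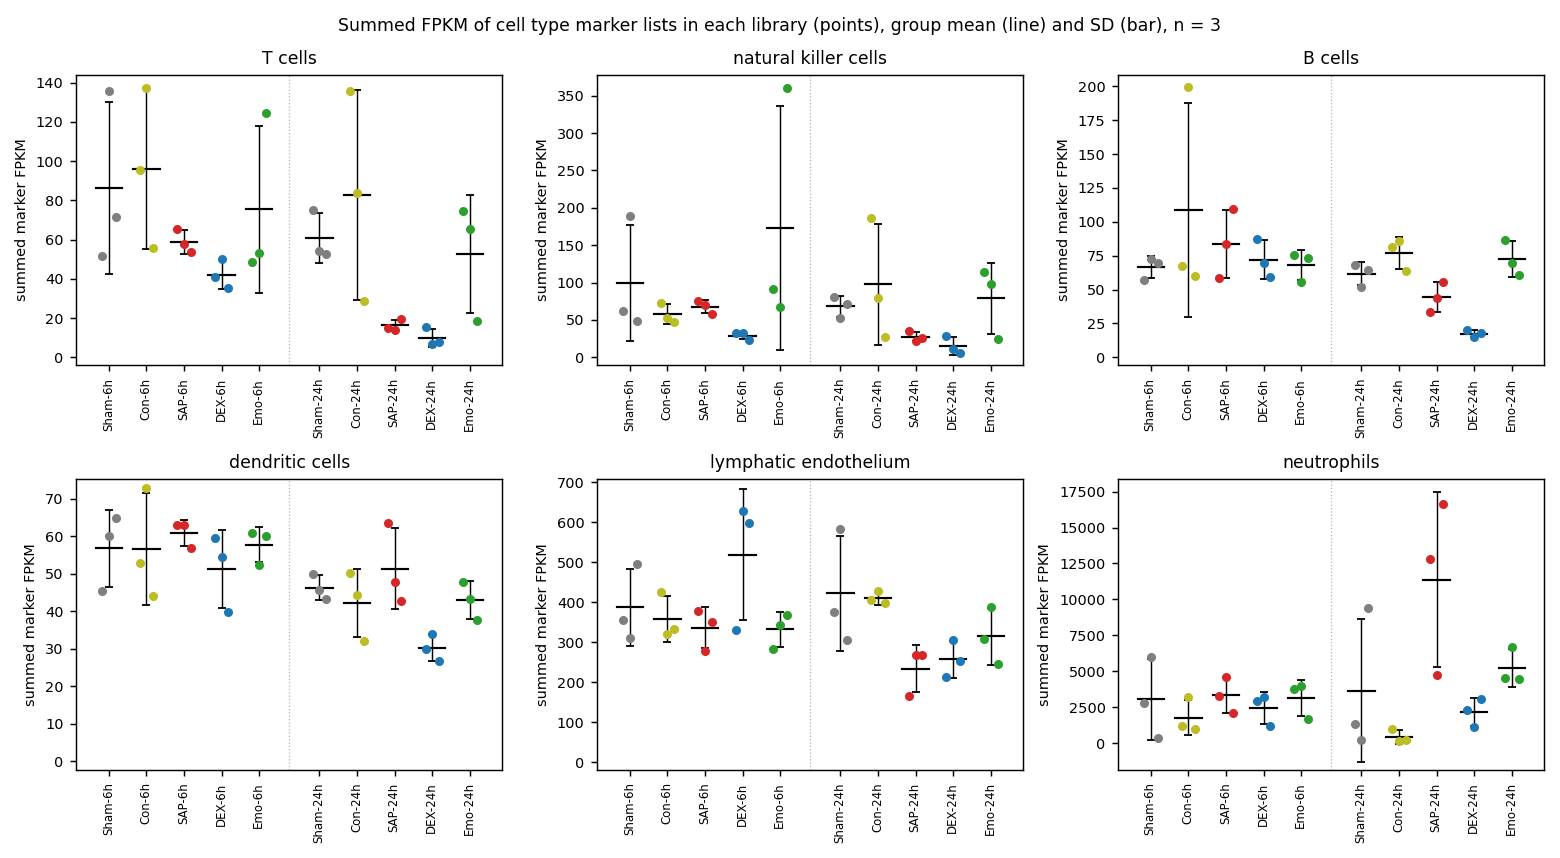
Summed FPKM of 6 marker lists in the 30 libraries. Points are rats, lines are group means and bars are SDs (n = 3), with the 6 h groups left of the dotted line; T cell sums lie between 6.93 and 15.36 in DEX-24h, between 18.56 and 74.65 in Emo-24h, and neutrophil sums reach 16610 in SAP-24h.

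The 3 protein-coding genes whose log2(FPKM + 1) was most like that of each member were sought over the 30 libraries among 12003 genes with a mean of at least 1 FPKM. These libraries come from 10 groups, so a correlation holds both group differences and differences between rats. Ccl5 was most like Il2rb, Prf1 and Nkg7 (Pearson r 0.938, 0.934 and 0.934), genes of natural killer and cytotoxic T cells, and within groups the values were 0.849, 0.917 and 0.894. Ccl21 was most like RT1-Da, RT1-Db1 and Cd74 (0.918, 0.897 and 0.897), which form and load MHC class II. Within groups these were 0.785, 0.719 and 0.717. Ccl4 was most like Dok2, Psmb9 and Slc15a3 (0.874, 0.856 and 0.854), the second being a subunit of the immunoproteasome.

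Ccl2 and Ccl7 were each most like the other (0.89). Next came Bcl2a1 and Vcam1 for Ccl2 (0.783 and 0.778) and Cxcl10 and Psme2 for Ccl7 (0.843 and 0.789). Cxcl10 is an interferon-induced chemokine, and Vcam1 an adhesion molecule of activated endothelium. Ccl3 was most like Ebi3, Ftsj1 and Gpr84 (0.759, 0.704 and 0.702). For Ccl17 the nearest genes, Map2k6, Cntn2 and Cog4 (0.712, 0.696 and 0.684), had values within groups of only 0.159, 0.439 and 0.256. Ccl12 and Ccl22 averaged under 1 FPKM and were left out.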

How the data were processed

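The authors sequenced poly(A) RNA of 30 rat lungs (directional libraries, paired reads, Illumina), mapped reads to the Ensembl rat genome with TopHat2, discarded reads mapped to several places, and deposited raw counts of uniquely mapped reads per gene. A member with a near-identical copy would thus be undercounted. The authors also computed the deposited FPKM, rounded to 2 decimals; the counting program was not given in the sources used here. Per the labels, bcl2fastq and edgeR were used too. Depth was 16813949 to 34692306 reads on genes.

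Counts were tested in edgeR 4.0.16 (R 4.3.3): filterByExpr (minimum count 10, minimum total 15), TMM scaling, and 1 quasi-likelihood model of 10 groups with 20 residual degrees of freedom, for 21 comparisons and 3 interactions. P-values were adjusted by Benjamini-Hochberg over 15934 genes. Each SE was the size of the log2 fold change divided by the square root of its F statistic. The 95% intervals of log2 fold changes used this SE and a t distribution with 20 degrees of freedom. The procedure was tested on simulated data. The members and lists were chosen with earlier results of these data known. 1 receptor of the pathway lists is not reported here. Pathway and marker lists were read as counts of called genes and summed FPKM. Named genes were the members, called genes of the pathway lists and, for each member averaging at least 1 FPKM, the 3 protein-coding genes with the highest Pearson r. Alternatives were RLE scaling, DESeq2 1.42.0, no filter, only the groups compared, the replicate number as a block, unadjusted p, no minimum fold, each library left out, and, for likeness, a pseudocount of 0.1, no minimum mean and Spearman's rho. Every pair of same-numbered rats deviated together with r above 0.1 in DEX-24h against DEX-6h (r 0.212, 0.221 and 0.23). The block left the count of members at 2 there. In none of the other 20 comparisons did every pair exceed 0.1. Some of these had only positive r, such as SAP-6h against Con-6h (0.303, 0.159 and 0.0487). Others had only negative r, such as Emo-6h against DEX-6h (-0.0562, -0.198 and -0.231). P-values measure the spread between these rats. Intervals of reads cover counting error only. The authors' FPKM carry no error of their own.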

Additional observations from a re-analysis of the deposited data

Results flagged for a closer look

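By edgeR no CC chemokine passed a test of the difference in response between 6 and 24 h (DESeq2 called 1, for Emo against SAP), and a pair of their receptors did, where 1.68% of all genes were called for Emo against SAP. Ccr6 had an Emo against SAP effect that was 2.24 higher at 24 h than at 6 h on the log2 scale (SE 0.47, edgeR interaction, adjusted p = 0.0218). The call was lost without SAP-6h replicate 2 or Emo-6h replicate 1 or 3 (adjusted p = 0.0750, 0.0628 and 0.0557). Ccr6 was 1.16, 1.85 and 0.99 FPKM in Emo-6h and 3.57, 3.52 and 2.63 in SAP-6h, then 1.79, 1.12 and 1.88 in Emo-24h and 1.10, 0.59 and 0.54 in SAP-24h. Ccr3, an eosinophil receptor, had an interaction of 5.06 (SE 1.30, edgeR, adjusted p = 0.0371), with 3, 5 and 3 reads in Emo-6h, 13, 25 and 6 in SAP-6h, 28, 60 and 10 in Emo-24h and 3, 3 and 5 in SAP-24h. It was kept in 5 of 12 fits with a library left out and lost without SAP-6h replicate 2, SAP-24h replicate 1 or 2, Emo-6h replicate 1 or 3, or Emo-24h replicate 1 or 2 (adjusted p 0.0554 to 0.1247).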

How the results depend on the processing

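Of the 18 calls on members, 4 were kept in every fit with a library left out and under every other setting, namely Ccl21 in 3 comparisons (Emo-24h and DEX-24h, DEX-24h and Sham-24h, DEX-24h and DEX-6h) and Ccl5 in DEX-24h against DEX-6h. None of the 18 changed direction, and the calls were kept in 48 of 108 fits with a library left out, which have fewer samples. With groups compared alone, Emo-24h against SAP-24h went from 508 genes called to 0, and SAP-24h against Sham-24h from 796 to 3. Counts over all genes moved by over 1.5 times under some alternative in all 24 comparisons and interactions, so the shares printed beside the members depend on the setting. Leaving out 1 library took DEX-6h against SAP-6h from 82 to 6 (SAP-6h replicate 2), Emo-6h against DEX-6h from 225 to 45 (DEX-6h replicate 1), DEX-24h against Sham-24h from 662 to 304 (Sham-24h replicate 1), Emo-24h against DEX-24h from 807 to 386 (Emo-24h replicate 2) and the interaction of Emo against SAP from 268 to 1 (SAP-6h replicate 2).

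Counts of members called, out of 10, moved as follows, and the cause was not tested. In DEX-24h against SAP-24h the main count of 2 became 1 with no low-count filter (541 genes called in all, against 594), 1 with the replicate block (3.61%), 0 with the groups compared alone (221 genes), 4 with DESeq2 (4.84% of all genes), 7 at unadjusted p with a 2-fold change (7.27%), and 0 to 2 with a library left out. In DEX-6h against Sham-6h 1 became 0 with no filter (573 genes, against 633), 3 with DESeq2 (4.79%), 4 at unadjusted p (6.8%) and 0 to 0 with a library left out. In SAP-24h against Con-24h 3 became 1 with the replicate block (6.74%), 0 with the groups alone (230 genes, against 1101) and 0 to 3 with a library left out. In SAP-24h against SAP-6h 1 became 2 with RLE factors (389 genes, against 386), 2 with the groups alone (177 genes), 4 with DESeq2 (3.7%), 5 at unadjusted p (6.72%) and 0 to 3 with a library left out. In Emo-24h against DEX-24h 5 became 8 at unadjusted p (8.32%) and 1 to 5 with a library left out, and in DEX-24h against Sham-24h 4 became 1 to 4 with a library left out. In Emo-24h against Emo-6h 0 became 1 with the replicate block (9.33%), 1 with DESeq2 (9.8%), 2 at unadjusted p (11.5%) and 0 to 1 with a library left out. From 0, DESeq2 called 1 in Emo-24h against SAP-24h, 1 in SAP-24h against Sham-24h, 3 in Emo-6h against DEX-6h and 1 for the interaction of Emo against SAP (4.39%, 6.15%, 2.42% and 3.8%). Unadjusted p with a 2-fold change gave 2, 4, 4 and 3 there (7.42%, 8.34%, 5.23% and 8.78%) and leaving out a library gave 0 to 1 in each. Unadjusted p with a 2-fold change also gave 3 in DEX-6h against SAP-6h (2.97%), 2 for the interaction of SAP against Sham (6.27%), and 1 each in Emo-6h against SAP-6h, Emo-6h against Sham-6h, Sham-24h against Con-24h and Con-24h against Con-6h (2.85% to 3.4%). The replicate block changed no other count by over 1.5 times.

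Among 24 alternative likeness lists, 17 shared at least 2 of the 3 genes, and those of Ccl20 shared 0 under Spearman's rho or without a minimum mean. Ccl12 and Ccl22 had 0 to 143 and 1 to 60 reads a library. As an alternative chosen after seeing the data, each library was left out for the pathway lists too: 14 of 39 calls on receptors and 1 of 8 on other CC chemokines were kept in every fit. Marker lists were tested only as in the report.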
